A study of Homo sapiens with 41 samples.

Results

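The box C/D snoRNA genes examined here were all genes of type snoRNA whose symbol is SNORD followed by a number, in the GENCODE annotation on GRCh37 (hg19). SNORD3, SNORD13 and SNORD118, which have promoters of their own, and the tandem arrays SNORD113 to SNORD116 were left out. This left 264 genes of 64486 in the annotation and of 1458 snoRNA genes. Of these, 123 were known snoRNA genes by their annotation status and 141 were predicted copies, of which many share 1 symbol (48 of the 264 are called SNORD112). The 264 genes carried 151 distinct symbols and were 43 to 237 bp long, with a median of 79.0 bp for the known genes.

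Elongin A, the subunit that gives the RNA polymerase II factor Elongin its effect on transcription, was mapped in DLD1 cells, an established line from human colon cancer, that had received no siRNA. CUT&RUN, which sequences the DNA that an antibody-tethered nuclease releases from around the protein, was performed on formaldehyde-fixed cells with a goat antibody in 2 replicates against 1 goat IgG control, and with a mouse antibody in 1 sample against 1 mouse IgG control. ChIP-seq was performed in 1 sample against 1 input control. The 3 deposited peak lists hold 8720, 2338 and 186 peaks, each with a fold enrichment over the control and a −log10 q-value. The 2 goat antibody replicates share 1 list with no column for each, so no value below has a replicate error, no difference was tested, and the depth behind each peak is unknown. Intervals are 95% Wilson intervals for shares and 95% Poisson intervals for densities. They cover counting error only, and genes of 1 host are not independent.

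Box C/D snoRNAs guide the ribose methylation of ribosomal RNA, and a few act in its cleavage. Box C lies near the 5′ end and box D near the 3′ end, where they form a kink-turn that the core proteins SNU13, NOP56, NOP58 and fibrillarin bind. Most human box C/D snoRNAs have no promoter: they are cut from introns of host transcripts, often of genes for ribosomal proteins and translation factors or of noncoding RNAs with little role other than as carriers, after splicing and debranching of the intron. Polymerase that transcribes the host therefore also makes the snoRNA.

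The sequences below are those of members with the strongest goat antibody peaks within 500 bp, 1 for each of 6 hosts. The fold enrichment of a peak belongs to its summit, and no summit lay in a member. They are read 5′ to 3′ on the strand of the gene from GRCh37, with box C and box D in capitals. SNORD20 (chr2:232321155-232321234, minus strand), SNORD78 (chr1:173834760-173834824, minus), SNORD104 (chr17:62223443-62223512, plus), SNORD101 (chr6:133136446-133136518, plus), SNORD12B (chr20:47896856-47896946, plus) and SNORD83B (chr22:39709824-39709916, minus) all lie in introns.
SNORD20: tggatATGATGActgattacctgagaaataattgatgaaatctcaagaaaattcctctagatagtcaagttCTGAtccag
SNORD78: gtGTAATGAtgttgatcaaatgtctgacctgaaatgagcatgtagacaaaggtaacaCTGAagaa
SNORD104: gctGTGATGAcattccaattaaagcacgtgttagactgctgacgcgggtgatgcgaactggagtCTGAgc
SNORD101: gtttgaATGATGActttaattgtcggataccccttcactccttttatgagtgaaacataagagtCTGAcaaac
SNORD12B: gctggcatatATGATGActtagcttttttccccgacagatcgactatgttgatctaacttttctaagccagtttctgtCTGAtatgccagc
SNORD83B: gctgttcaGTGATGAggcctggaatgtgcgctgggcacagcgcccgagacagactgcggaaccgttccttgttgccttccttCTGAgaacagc
The next 6 are shown because members of 1 host differed in their peaks. SNORD18A (chr15:66795581-66795652), SNORD18B (chr15:66794358-66794429) and SNORD18C (chr15:66793588-66793656) are related copies in 3 introns of RPL4, on the minus strand. SNORD32A (chr19:49993222-49993305), SNORD33 (chr19:49993872-49993956) and SNORD34 (chr19:49994161-49994231) lie on the plus strand in 3 introns of RPL13A.
SNORD18A: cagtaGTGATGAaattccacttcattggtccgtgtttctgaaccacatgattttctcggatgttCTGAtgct
SNORD18B: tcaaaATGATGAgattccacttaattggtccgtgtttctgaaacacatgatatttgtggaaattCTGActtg
SNORD18C: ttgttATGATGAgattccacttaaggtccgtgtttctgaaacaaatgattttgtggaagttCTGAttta
SNORD32A: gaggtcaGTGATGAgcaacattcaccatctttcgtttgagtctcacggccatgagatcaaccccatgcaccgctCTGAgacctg
SNORD33: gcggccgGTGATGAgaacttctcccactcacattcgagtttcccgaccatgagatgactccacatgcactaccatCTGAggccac
SNORD34: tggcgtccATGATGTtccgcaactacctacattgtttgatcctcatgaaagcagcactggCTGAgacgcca
The last is the predicted copy with a goat antibody peak, SNORD27 copy 1 (chr13:21714025-21714096, minus strand), which lies in no host.
SNORD27 copy 1: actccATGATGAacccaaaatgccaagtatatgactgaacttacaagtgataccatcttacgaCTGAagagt

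Box C was searched as ATGATGA or GTGATGA and box D as CTGA in the last 25 bases, on the strand of the gene. Both were present without a mismatch in 71 of the 123 known members (57.7%) and in 29 of the 141 predicted copies (20.6%). With 1 mismatch allowed in box C, as in SNORD78 and SNORD34, the counts were 111 (90.2%) and 59 (41.8%). Among known members, 43 of the 45 with a goat antibody peak within 500 bp and 68 of the 78 without one had both boxes at this setting. The central 32 bp of 5 members, SNORD78 among them, occurred more than once in the genome.

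With the goat antibody, 46 of the 264 box C/D snoRNA genes had a peak within 500 bp, or 17.4% (13.3 to 22.5%), beside 9.36% of all annotated genes and 5.28% of all snoRNA genes. For all genes, here and in the other lists, a peak anywhere in the gene or 500 bp either side counted. Longer genes therefore have more chances of a peak than snoRNA genes. The occupied genes were nearly all known members: 45 of 123 known members (36.6%, 28.6 to 45.4%) and 1 of 141 predicted copies (0.709%, 0.125 to 3.91%). That copy, SNORD27 copy 1, lay 234 bp from a peak with a fold enrichment of 2.81, number 8339 of 8720 in the list. The median distance to the nearest goat antibody peak edge was 1310 bp for known members and 209000 bp for predicted copies.

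The mouse antibody list had a peak within 500 bp of 5 of the 264 genes (1.89%, 0.812 to 4.36%), beside 3.33% of all genes and 1.03% of all snoRNA genes. Of these, 4 were known members, and all 4 also had a goat antibody peak. SNORD99, in the noncoding host SNHG12, had fold enrichments of 6.61 (mouse) and 5.04 (goat). SNORD102, in RPL21, had 4.66 and 4.58, and SNORD12, in ZFAS1, had 3.82 and 8.17. SNORD72, in RPL37, had the lowest goat value of these, 3.46, beside 3.84 with the mouse antibody. The fold enrichments of the lists are set against different controls and are not on 1 scale. The fifth gene was a predicted copy of SNORD70 in NOP58, overlapped by a mouse antibody peak of 4.24, whose nearest goat antibody peak was 4490 bp away. No box C/D snoRNA gene was within 500 bp of a ChIP-seq peak, beside 0.364% of all genes and 0.274% of all snoRNA genes, and 0 of 264 genes has a Wilson interval of 0 to 1.43% (3 counts of 264 would be 1.14%). The nearest ChIP-seq peak lay 2548 bp from SNORD14E, in HSPA8.

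Among related classes, known H/ACA snoRNA genes (SNORA), which guide pseudouridylation and are also mostly intronic, had a goat antibody peak within 500 bp in 23 of 107 genes (21.5%, 14.8 to 30.2%). Their interval overlaps that of known box C/D genes. Predicted H/ACA copies had one in 2 of 291 (0.687%), as rarely as box C/D copies. None of the 119 genes of the SNORD113 to SNORD116 arrays, which lie in imprinted clusters, had one (0 to 3.13%), and miRNA genes had one in 41 of 3049 (1.34%), with 0.492% for the mouse antibody and 0.0984% for ChIP-seq. With the mouse antibody the known H/ACA genes had the higher share, 6 of 107 (5.61%, 2.60 to 11.7%) against 4 of 123 (3.25%, 1.27 to 8.06%), with overlapping intervals.

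**Figure D1:**
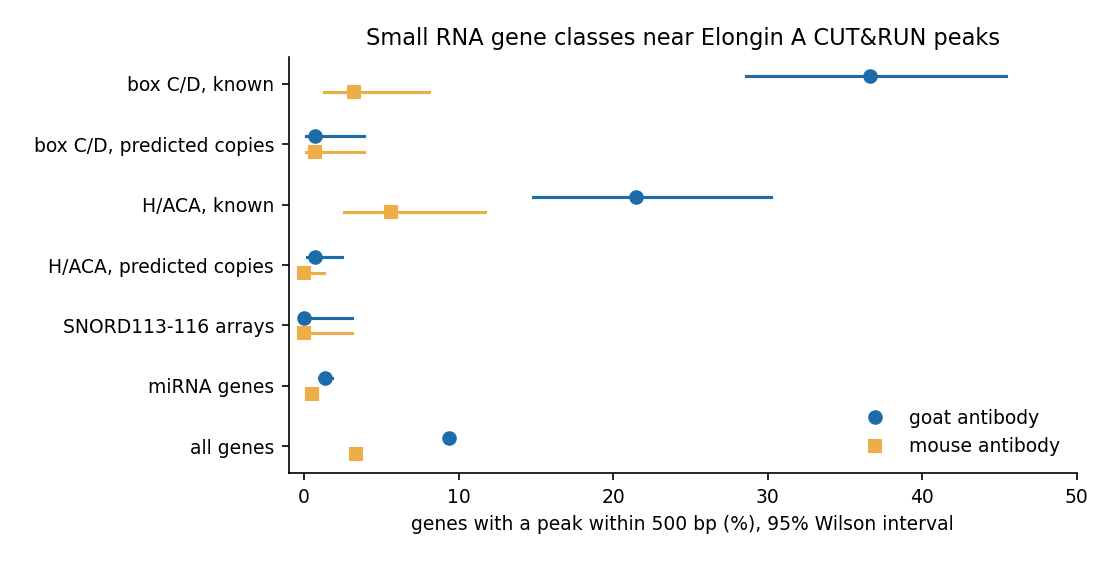
Share of genes with a CUT&RUN peak within 500 bp, in percent (x axis), for 7 gene classes (y axis), with the goat antibody (circles) and the mouse antibody (squares). Lines are 95% Wilson intervals. Known box C/D genes stand at 36.6% and their predicted copies at 0.709% in the goat antibody list.

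The known members divided by their host. Introns of 71 host genes held 118 of the 123, none lay in an exon, and 5 (SNORD88A, SNORD88B, SNORD88C, SNORD32B and a SNORD112 gene on the X chromosome) had no host on their strand. In ribosomal protein genes 29 of 39 members had a goat antibody peak within 500 bp (74.4%, 58.9 to 85.4%). The share was 7 of 16 in noncoding hosts (43.8%, 23.1 to 66.8%), 1 of 6 in translation factor genes (16.7%, 3.01 to 56.4%), 8 of 57 in other protein-coding hosts (14.0%, 7.29 to 25.3%) and 0 of 5 without a host. The annotation used here gives 1 SNORD gene in GAS5 and none in SNHG1, and other snoRNAs of these noncoding hosts were not analysed here. The interval of the ribosomal protein group did not overlap that of the other protein-coding hosts. The median distance to the nearest peak edge ran in the order 126 bp for ribosomal protein hosts, 881 bp for noncoding hosts, 1220 bp for translation factor hosts, 6700 bp without a host and 7370 bp for other protein-coding hosts. With the mouse antibody the order of the classes was another, at 2 of 16 in noncoding hosts (12.5%, 3.50 to 36.0%), 2 of 39 in ribosomal protein hosts (5.13%, 1.42 to 16.9%) and none elsewhere, with overlapping intervals. The farthest member of a ribosomal protein host from a goat antibody peak, SNORD24, lay 2364 bp from one.

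The goat antibody share was highest near the start of the host transcript. Within 1 kb of the start, 13 of 17 known members had a goat antibody peak within 500 bp (76.5%, 52.7 to 90.4%). The share was 15 of 32 at 1 to 3 kb (46.9%), 17 of 38 at 3 to 10 kb (44.7%) and 0 of 31 beyond 10 kb (0 to 11.0%). The mouse antibody list did not show this order, with 0 of 17 within 1 kb (0 to 18.4%), 2 of 32 at 1 to 3 kb, 2 of 38 at 3 to 10 kb and 0 of 31 beyond. Members beyond 10 kb lay in no ribosomal protein gene, since these hosts are short, so distance and host class cannot be fully told apart. Within 1 to 10 kb they can be compared in the goat antibody list. At 3 to 10 kb, 11 of 13 members in ribosomal protein hosts (84.6%, 57.8 to 95.7%) and 6 of 25 in other hosts (24.0%, 11.5 to 43.4%) had a peak. At 1 to 3 kb the counts were 10 of 17 (58.8%, 36.0 to 78.4%) and 5 of 15 (33.3%, 15.2 to 58.3%), with overlapping intervals. In all, 32 of the 101 known members more than 1 kb from the host start had a peak (31.7%, 23.4 to 41.3%).

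**Figure D2:**
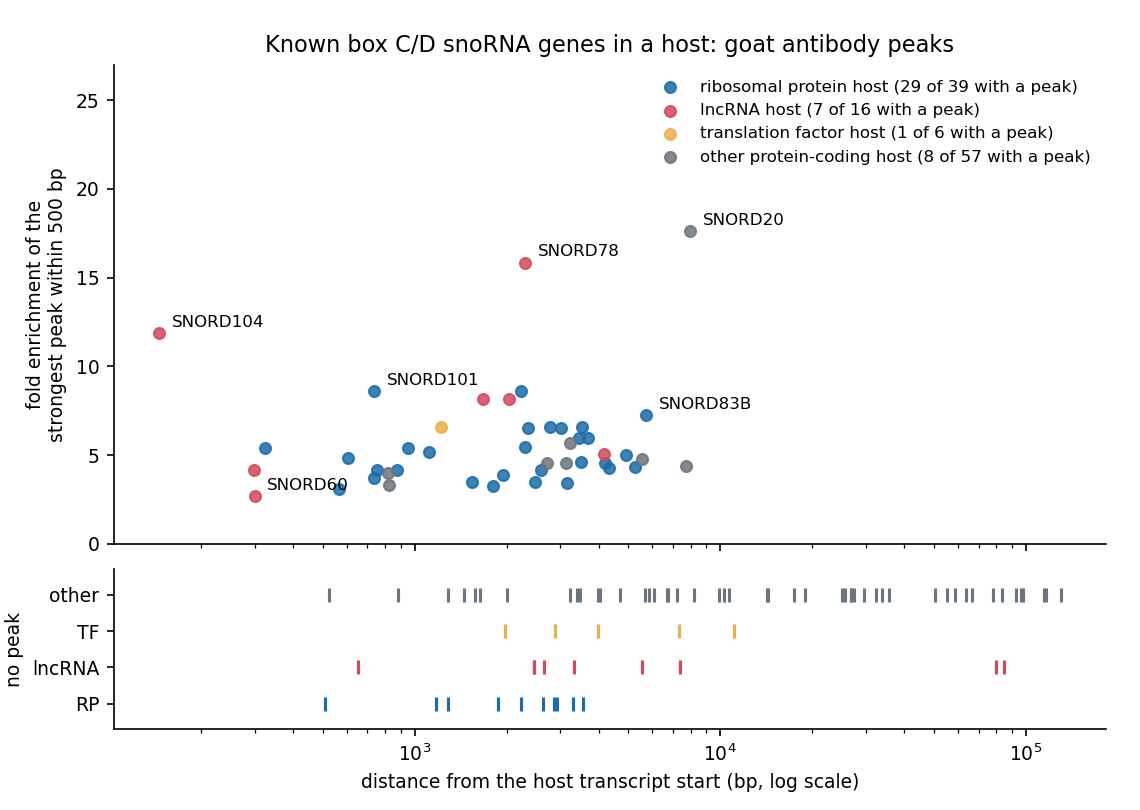
Upper panel, fold enrichment of the strongest goat antibody peak within 500 bp (y axis) of each known member in a host against its distance from the host transcript start in bp (x axis, log scale), coloured by host class. Lower panel, members with no such peak in ribosomal protein (RP), noncoding (lncRNA), translation factor (TF) and other hosts. SNORD20 has the highest value, 17.6, and no member beyond 10 kb has a peak.

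Members with and without a peak differed in the build of their introns. Members with a goat antibody peak lay in host transcripts of median 5010 bp and introns of median 477 bp, and those without in transcripts of median 14100 bp and introns of median 1020 bp. Box C/D snoRNAs are known to lie at a set distance before the downstream exon, and 60 of the 118 lay 50 to 150 bp before it. Of these 60, 31 had a peak (51.7%, 39.3 to 63.8%), against 14 of the 58 at a greater distance (24.1%, 15 to 36.5%), whose hosts were not matched for length.

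The 46 genes near a goat antibody peak shared 41 peaks and lay in 26 hosts, except SNORD27 copy 1. The fold enrichment of these 41 peaks ran from 2.67 to 17.6 with a median of 4.53, beside 4.32 for the whole list, and 13 were in the top 25% of the list. They were wide: the median width was 609 bp, beside 362 bp for the list, and 31.7% exceeded 1 kb, beside 4.51% of the list. A wide peak has more chances to come within 500 bp of a gene. No summit lay in a repeated 32 bp sequence. Of the 46 genes, 24 were overlapped by a peak, and none held a summit. The summit of the strongest peak lay downstream of the snoRNA in 23 genes and upstream in 23 (50.0% downstream, 36.1 to 63.9%), at a median distance of 400 bp, and within 250 bp in 11. At the limit of 500 bp, the farthest genes inside were SNORD4A at 484 bp, SNORD33 at 442 bp and SNORD15B at 415 bp, and the first outside were SNORD43 at 532 bp, SNORD14E at 574 bp and SNORD35A at 582 bp.

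The strongest peaks within 500 bp of a member were those near members in NCL, GAS5 and SNHG25. SNORD20, which guides methylation of small-subunit rRNA, lies in intron 11 of NCL, the gene of the nucleolar protein nucleolin, and was covered by a peak of 17.6-fold enrichment (−log10 q of 45.2), ninth in the list. That peak ran over 6437 bp, and its summit lay 3636 bp downstream of SNORD20, past the end of NCL. SNORD82, in an earlier intron of the same gene, lay 944 bp from the nearest peak. The same host held the member with the strongest peak within 500 bp and one with no such peak.

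SNORD78, in intron 6 of the noncoding host GAS5, was covered by a peak of 15.9-fold (−log10 q of 46.5) and 6686 bp, which began 348 bp before the annotated start of the host and had its summit 2118 bp downstream of the snoRNA. The mouse antibody list had 4 separate peaks in GAS5, with fold enrichments of 3.84 to 5.03, the nearest of them 509 bp from SNORD78. SNORD104, which guides methylation of large-subunit rRNA, lies in the single intron of SNHG25, a noncoding host of 540 bp. Its peak, 11.9-fold and 1201 bp wide, began 235 bp away and had its summit 836 bp downstream, beyond the host's end.

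In RPS12, of the small ribosomal subunit, 1 peak of 8.62-fold and 4965 bp covered 97.1% of the transcript and both members, SNORD101 and SNORD100. In ZFAS1, a noncoding host, SNORD12B and SNORD12 lay under 1 peak of 8.17-fold, and SNORD12C, in the first intron, lay 179 bp from a peak of 4.15. SNORD83B and SNORD83A, in RPL3, of the large subunit, had separate peaks of 7.26 and 4.30. The third RPL3 member, SNORD43, was the one just outside the limit, at 532 bp. RPL3 also had 2 wider peaks with higher values, 10.9 and 9.64, which were near none of its 3 members.

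RPL4 and RPL23A each carry 4 known members and had a peak within 500 bp of all of them. In RPL4, SNORD18C and SNORD18B, which guide methylation of large-subunit rRNA, shared a peak of 6.59, while SNORD16 had 3.90 and SNORD18A had 3.46. The 3 SNORD18 sequences, shown above, share 77.8 to 84.7% of their aligned bases. SNORD18B and SNORD18C, the most alike pair at 84.7%, begin 2764 and 3537 bp from the host start. They lie at either end of their shared peak, which runs from 2878 to 3572 bp. SNORD18A, with a weaker peak, begins at 1541 bp. A relation between sequence and peak was not tested. In RPL23A, SNORD42A and SNORD4B shared a peak of 5.95, SNORD4A had 4.15, and SNORD42B, in the first intron, had 3.08 from a peak at the host start.

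RPL13A was split. SNORD32A, which guides methylation of both rRNAs, was overlapped by a peak of 6.55, and SNORD33 lay 442 bp from it. SNORD34 and SNORD35A, in the next introns, lay 731 and 582 bp from any peak, in a gap between that peak and one of 8.97-fold over the end of the gene. RPL7A, with 4 members, had no peak within 500 bp of SNORD24, SNORD36A, SNORD36B or SNORD36C, and its 1 peak, of 3.46, had its summit past the gene end. Among the 10 ribosomal protein hosts with 2 or more known members, every member had a peak in 5, some had one in 4, and none had one in RPL7A.

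**Figure D3:**
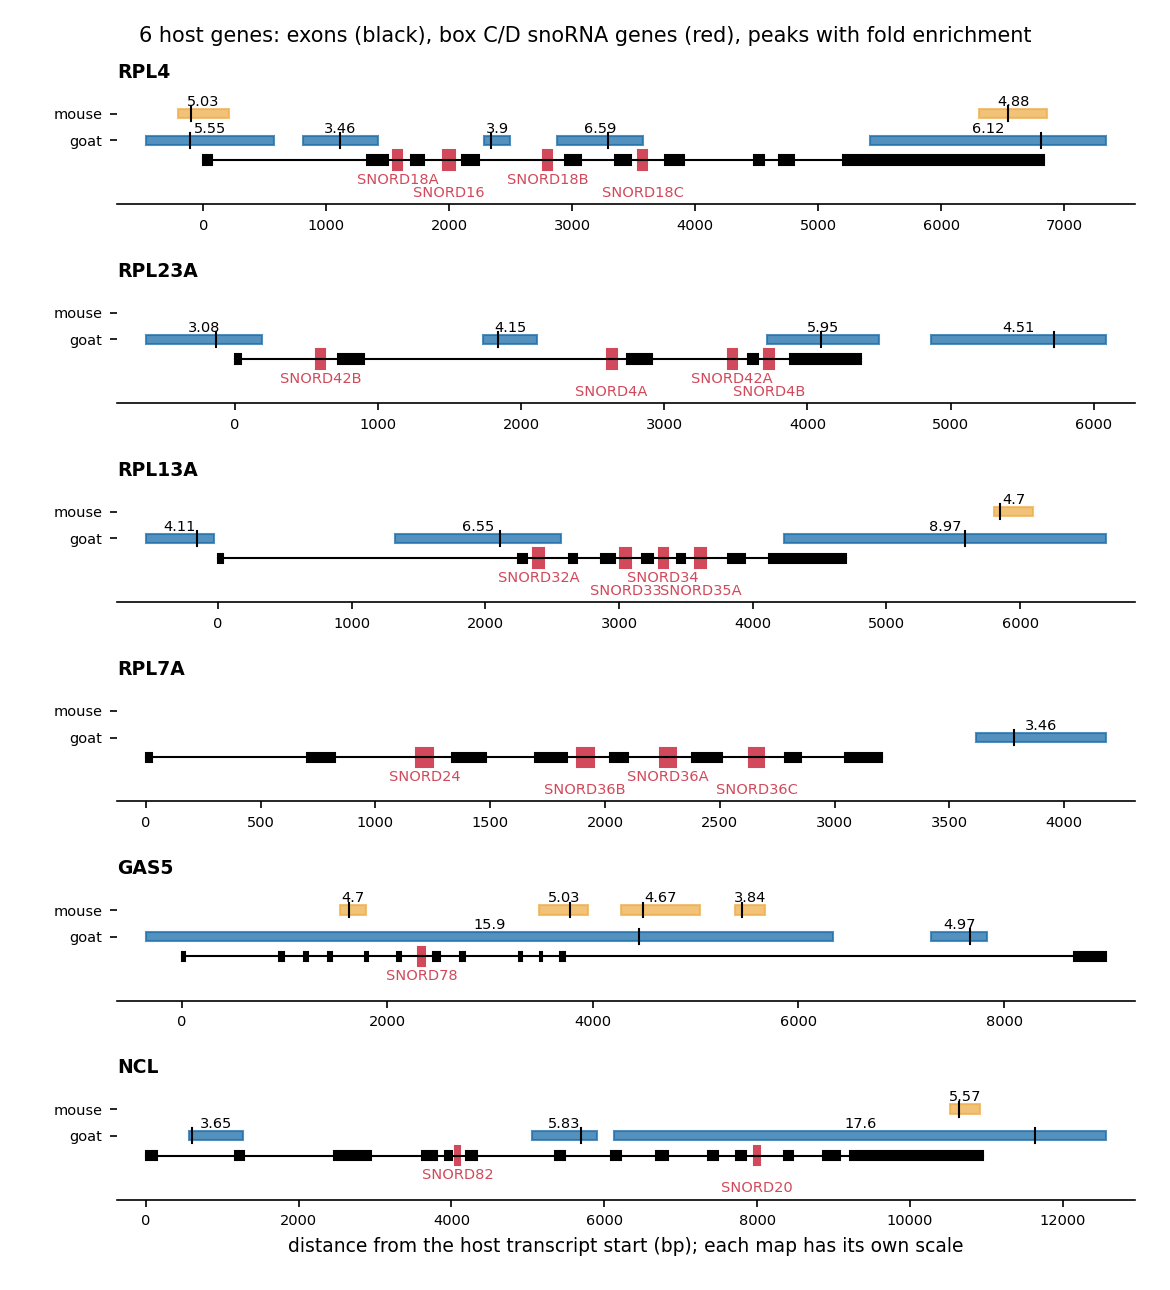
Maps of 6 hosts, each with its own scale in bp from the transcript start (x axis): exons in black, box C/D snoRNA genes in red, goat and mouse antibody peaks as bars with their fold enrichment and a line at the summit. Peaks lie near all 4 members of RPL4 and RPL23A, near 2 of 4 in RPL13A and near none in RPL7A.

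The remaining member among the 15 highest was in a translation factor gene. SNORD2 lies in EIF4A2, an RNA helicase of translation initiation, and was overlapped by a peak of 6.60. Next in order, SNORD45B, in RABGGTB, a subunit of the enzyme that attaches lipid to Rab proteins, was overlapped by a peak of 5.67. SNORD45C, in the same gene, lay 234 bp from a peak of 3.99, and SNORD45A lay 803 bp from any. HSPA8, a constitutive heat shock protein gene, had 1 peak of 4.58 over both SNORD14C and SNORD14D, members of the U14 family that acts in small-subunit rRNA processing, and none within 500 bp of SNORD14E.

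Many hosts with several peaks had none at the snoRNA. EEF2, the translocation factor of translation, had 6 goat antibody peaks of 3.89 to 9.04, and its member SNORD37 lay 823 bp from the nearest. EIF4A1 had 5 peaks and SNORD10 lay 1077 bp away, and NOP58, itself a gene of a core snoRNP protein, had 6 peaks and no known member of its 3 near one. NOP56, another core protein gene, had 2 peaks, and SNORD86 and SNORD110 lay 788 and 2684 bp away. GNL3, with 3 known members, had 1 peak, which was near none of them. Among hosts of known members RPL5 had the most peaks, 8, of which 1 of 4.35 overlapped its member SNORD21. DDX39B, RPL37 and SNRPB had 5 each, with fold enrichments at their members of 4.79 (SNORD117), 3.31 (SNORD84), 3.46 (SNORD72) and 4.37 (SNORD119).

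The hosts themselves were often occupied. Of the 71 hosts of known members, 50 had a goat antibody peak in the transcript or 500 bp either side (70.4%), beside 19.1% of all protein-coding genes. All 17 ribosomal protein hosts did, as did 5 of 6 translation factor hosts, 8 of 12 noncoding hosts and 20 of 36 others. Among ribosomal protein genes that host no known member, 43 of 58 did (74.1%). The goat antibody share was higher than in other protein-coding genes at each host length. The hosts here include the 12 noncoding ones, and no share over all noncoding genes is given. Hosts under 5 kb had a peak in 15 of 16, against 10.1% of other protein-coding genes of that length, hosts of 5 to 10 kb in 16 of 21 against 12.9%, and longer hosts in 19 of 34 against 22%. With the mouse antibody, 19 of 71 hosts had a peak (26.8%), beside 6.50% of protein-coding genes, and with ChIP-seq none did, beside 0.674%. By length, the mouse antibody counts were 1 of 16 hosts under 5 kb, against 3.34% of other protein-coding genes. They were 7 of 21 at 5 to 10 kb against 3.78%, and 11 of 34 longer hosts against 7.62%. Host expression was not analysed here, and its part in these counts was not tested.

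Since a snoRNA lies within its host, a peak at the snoRNA also counts for the host. Of the 50 hosts with a goat antibody peak, 26 had one within 500 bp of a known member, among them 15 of the 17 ribosomal protein hosts. Of 137 goat antibody summits in the hosts, 23 lay within 500 bp of the start. Of the others, 21 lay in a snoRNA-bearing intron, 67 in another intron, 20 in an exon and 6 up to 500 bp past the end.

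The introns that carry a known member, called snoRNA-bearing here, were compared with the other introns of the same transcripts. The other introns were not searched for H/ACA snoRNAs or for snoRNAs missing from the annotation, as in GAS5, so they are not all free of snoRNAs. A goat antibody peak overlapped 40 of 118 snoRNA-bearing introns (33.9%, 26 to 42.8%), each of which held 1 known member, and 111 of 769 others (14.4%, 12.1 to 17.1%), and these intervals did not overlap. The density of summits was 3.64 per 100 kb (2.28 to 5.51) and 3.28 (2.56 to 4.14). Introns of other protein-coding genes had 0.371 (0.360 to 0.382). In hosts under 10 kb the shares were 30 of 69 (43.5%, 32.4 to 55.2%) and 76 of 171 (44.4%, 37.2 to 51.9%), and the densities 26.9 per 100 kb (14.3 to 46.0) and 37.4 (26.5 to 51.4). In ribosomal protein hosts they were 19 of 39 (48.7%, 33.9 to 63.8%) and 34 of 56 (60.7%, 47.6 to 72.4%), with densities of 41.9 (20.1 to 77.1) and 57.5 (35.6 to 87.9). In hosts other than ribosomal protein genes a peak overlapped 21 of 79 (26.6%, 18.1 to 37.2%) and 77 of 713 (10.8%, 8.73 to 13.3%), with densities of 2.07 (1.07 to 3.61) and 2.33 (1.73 to 3.09). The density intervals of snoRNA-bearing and other introns thus overlapped in each set. The intervals of the overlapped shares did not in all hosts and in hosts other than ribosomal protein genes. These introns were not matched for distance from the gene start, and 448 of the 769 other introns started beyond 10 kb. Split by distance over all hosts, the intervals of the shares overlapped throughout. The shares were 58.6% and 32.4% within 1 kb, and 34.5% and 38.6% at 1 to 3 kb. They were 40.6% and 29.3% at 3 to 10 kb, and 0 of 28 and 7 of 448 beyond. Introns of ribosomal protein genes that host no known member had 18.6 summits per 100 kb (13.6 to 24.7), below the interval of the other introns of ribosomal protein hosts and overlapping that of their snoRNA-bearing introns. With the mouse antibody, a peak overlapped 3 of 118 snoRNA-bearing introns (2.54%, 0.868 to 7.21%) and 20 of 769 others (2.60%, 1.69 to 3.98%). The mouse antibody densities were 0.331 per 100 kb (0.0401 to 1.20) and 0.843 (0.500 to 1.33). Both pairs of intervals overlapped, so the mouse antibody list did not show the goat antibody difference in shares.

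Within the snoRNA-bearing introns, the cover of snoRNA bases and of their surroundings depended on the set of hosts. In ribosomal protein hosts, goat antibody peaks covered 28.1% of snoRNA bases and 34.0% of the other bases of the same introns. In hosts under 10 kb they covered 24.9% and 22.8%, in hosts other than ribosomal protein genes 10.7% and 1.23%, and in all hosts 16.1% and 2.37%. The last 2 sets hold long introns, and introns are weighted by their length in these shares. None of the 22 goat antibody summits in these introns lay in a snoRNA, which made up 1.68% of the intron bases. None of the 10 summits in ribosomal protein hosts did either, where snoRNAs made up 13.2%. Mouse antibody peaks covered no snoRNA base of these introns and 0.121% of their other bases in all hosts.

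**Figure D4:**
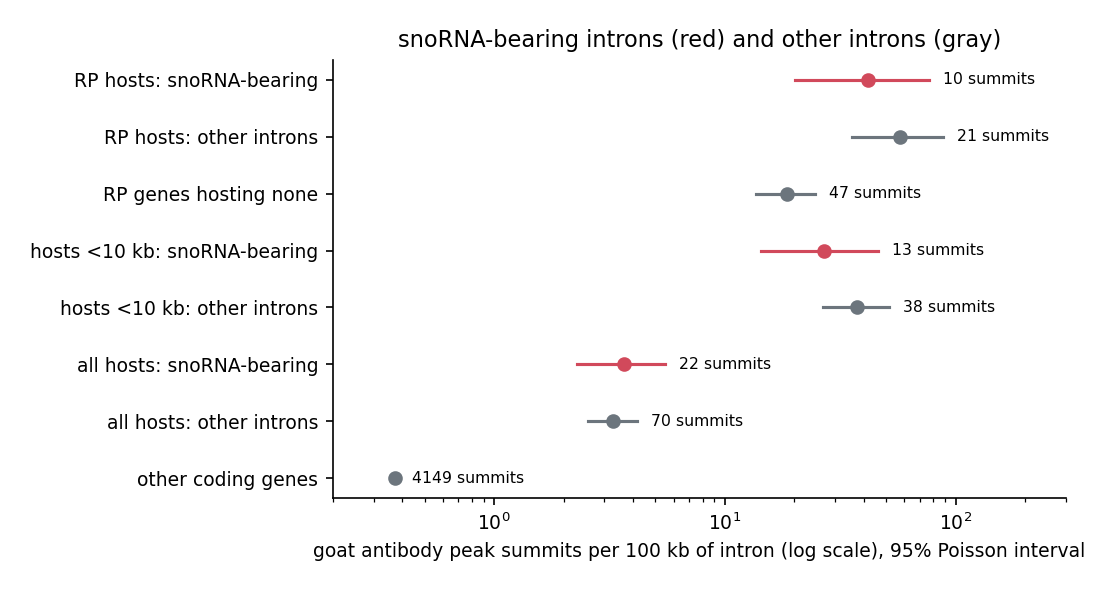
Goat antibody peak summits per 100 kb of intron (x axis, log scale) in snoRNA-bearing introns (red) and other introns (gray), with 95% Poisson intervals and the number of summits. In ribosomal protein (RP) hosts the values are 41.9 and 57.5, and in all hosts 3.64 and 3.28.

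The strongest goat antibody peak of a host was seldom at its start. For 53 hosts with a peak between 2 kb before the start and 2 kb past the end, the strongest summit lay at the start (2 kb before to 500 bp after) in 7 (13.2%, 6.55 to 24.8%), within the gene in 28 (52.8%) and in the last 500 bp or up to 2 kb past the end in 18 (34.0%, 22.7 to 47.4%). The place depends on the transcript taken: GAS5 and ZFAS1 count as within the gene, with summits 4453 and 5217 bp from the start of canonical transcripts that span 8993 and 20959 bp in the lifted annotation. Among other protein-coding genes with a peak, 33.4% had it at the start and 10.2% at the end. Hosts under 10 kb had it at the end in 16 of 33 (48.5%, 32.5 to 64.8%) and at the start in 3 (9.09%, 3.14 to 23.6%), against 24.5% (21.5 to 27.8%) and 55.6% (52.0 to 59.2%) of other protein-coding genes of 1 to 10 kb. In both comparisons the intervals for start and end did not overlap. Ribosomal protein genes that host no known member, of any length, had it at the start in 36.4% (23.8 to 51.1%) and at the end in 29.5% (18.2 to 44.2%). The mouse antibody list gave 3 of 23 hosts at the start, 12 within and 8 at the end. Among other protein-coding genes with a mouse antibody peak, the strongest was at the start in 37.9%, within in 53.5% and at the end in 8.56%. Between hosts and these genes, the intervals for start and end did not overlap, and those for within did.

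The peaks past the end included the strongest of all hosts. EIF4A2 had a peak of 21.0-fold (−log10 q of 85.6), sixth in the list, with its summit 661 bp past the annotated end, and the mouse antibody list had its strongest EIF4A2 peak, 4.91, at almost the same place, 6932 bp from the start beside 6982 bp. The NCL peak of 17.6 had its summit 683 bp past the end, and those of RACK1, a ribosome-associated scaffold, and RPL21 lay 844 and 830 bp past it, with fold enrichments of 8.89 and 8.06. RPL13A, with 8.97 at 888 bp past the end, had its 4 snoRNAs well upstream of that summit.

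**Figure D5:**
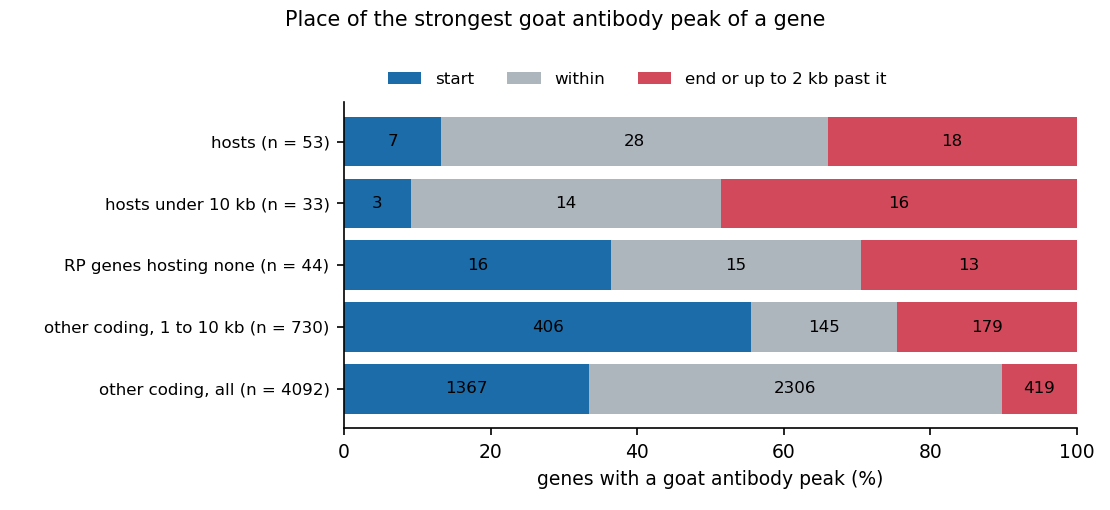
Place of the strongest goat antibody summit in 5 sets of genes, in percent of genes with a peak (x axis), with the number of genes in each segment. Hosts under 10 kb have it at the end in 16 of 33 genes and other protein-coding genes of 1 to 10 kb in 179 of 730.

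Transcripts of many snoRNA hosts begin with a 5′ terminal oligopyrimidine tract, a mark of genes of the translation machinery. In the RefSeq promoters on GRCh38.p14, 58 of the 71 hosts were matched, and 21 of them (36.2%) had C at the first transcribed base followed by at least 4 bases that were C or T on the gene's strand, beside 4.04% of all 27305 promoters. Of the matched hosts with a goat antibody peak, 19 of 40 had this start (47.5%), and of those without one, 2 of 18 (11.1%). All 17 ribosomal protein hosts had a goat antibody peak, so these shares also differ in host class, which was not separated. By class it was present in 7 of the 11 matched ribosomal protein hosts, 5 of 10 noncoding hosts, 2 of 6 translation factor hosts and 7 of 31 others.

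The genes of proteins that build, trim and move box C/D snoRNPs were counted in the same way. Of 21 such genes, 6 had a goat antibody peak in the transcript or within 500 bp of it, beside 19.1% of all protein-coding genes, 4 had a mouse antibody peak, beside 6.50%, and 1 had a ChIP-seq peak, beside 0.674%. Among the core proteins, NOP56 and NOP58 had goat antibody peaks of 5.85 and 5.70, the latter with its summit 224 bp from the start, while FBL, the methyltransferase, had no peak in any list. SNU13 had a mouse antibody peak of 5.97 at 102 bp from the start and no goat antibody peak. RUVBL2, an ATPase of snoRNP assembly, had both, 10.6 and 4.85, both just upstream of the start, and RUVBL1, its partner, had 2.89 with the goat antibody near its end. NOLC1, a nucleolar and Cajal body chaperone, had 5.49 and 5.83, and PHAX, an export adaptor that also carries snoRNAs, had 3.68 with the goat antibody. ZNHIT3, an assembly factor, had the one ChIP-seq peak at these genes, 14.8-fold and just upstream of its start. AQR and DBR1, of intron binding and debranching, and the trimming exonucleases XRN2, EXOSC10 and DIS3 had no peak in the 3 lists.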

How the data were processed

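Elongin A CUT&RUN and ChIP-seq were compared as 3 deposited peak lists: goat antibody (2 replicates, 1 list), mouse antibody and ChIP-seq. Per the labels and methods, the authors aligned reads to hg19 with Bowtie2, removed duplicates with Picard and called peaks with MACS2 against IgG or input. The fold enrichment of a peak, deposited as MACS2 wrote it, is a ratio of signal at the summit to the control background around it. The deposited −log10 q-value of each peak was used for thresholds, and p-values and scores were not used. The lists hold no read totals and no depth, and a filter on mapping quality is not given in the sources used here. How the goat antibody replicates were combined is not stated there either.

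Positions were counted from 1. Genes were from GENCODE release 44 lifted to GRCh37. Members were called known or predicted copies by the gene status carried over from release 19, and genes with no status were counted as known. Copies that share a symbol were numbered in the order of the annotation. A host is a protein-coding or lncRNA gene with a transcript over the member on its strand; where several qualified, named genes that are not readthrough genes were taken first and then the shortest, with the canonical transcript. A peak counted when its edge was within 500 bp of the gene, and among several the strongest is given. Ribosomal protein genes are those named RPL or RPS and a number. The members and lists were chosen with earlier results of these data known. Named members were those near a peak in 2 lists, the 15 with the highest goat antibody fold enrichment (at most 3 per host), and those of GAS5, SNHG1, ZFAS1, EIF4A1, RPL13A, NOP56, NCL, HSPA8, EEF2 and RPL3. Some hosts and members that fall under these rules are not reported here by name. Named hosts had 3 or more members or were among the 10 with the most goat antibody peaks. Others were chosen after their values were seen. No test was run. Intervals are Wilson or exact Poisson intervals at 95% and cover counting error only. The counting was tested on simulated peaks placed at known distances. The alternatives were stricter peak thresholds, other distances, summits, narrow peaks, unique summits, main chromosomes, 1 unit per host and basic transcripts. RNA-seq, 4sU-seq and RNA polymerase II ChIP-seq were not analysed here. Python 3.11.15 was used with pandas 2.3.3, numpy 2.4.6, scipy 1.17.1 and matplotlib 3.10.9.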

Additional observations from a re-analysis of the deposited data

How the results depend on the processing

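Of 93 recomputed values, 79 stayed within 1.5 times the count or within the interval of the value given, and 14 moved. With a q-value under 0.01, 3 box C/D snoRNA genes had a mouse antibody peak within 500 bp in place of 5, and with a q-value under 0.001, 1 did. With a fold enrichment of at least 5, the count was 21 of the goat antibody list in place of 46 and 1 of the mouse antibody list, 17 members over 1 kb from the host start had a goat antibody peak in place of 32, snoRNA-bearing introns held 0.662 summits per 100 kb in place of 3.64, and the median fold enrichment was 6.59 in place of 4.81, which follows from the threshold itself. With at least 1 bp of overlap with the gene, the counts were 24 (goat antibody), 1 (mouse antibody) and 19 (over 1 kb from the host start), and within 200 bp the mouse antibody count was 3. With summits in place of peak edges the goat antibody count was 30, and with each host counted once it was 27. The shares over all genes and over all snoRNA genes were not recomputed under the alternatives, so these counts have no background beside them. Among choices made after seeing the data, known members alone gave 45, and snoRNA-bearing introns of hosts under 10 kb held 26.9 summits per 100 kb. The ChIP-seq count was 0 under each alternative tried. Keeping copies of SNORD13 was not run, since the annotation holds 1 SNORD13 gene and no lettered copy. No replicate could be left out and no sampling depth could be given, since each list is 1 set of peaks. No paired analysis was possible because the goat antibody list has no column per replicate and the other lists come from 1 sample each.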
